A study of Mus musculus with 4 samples.

Results

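Of the 91266 accessible regions that the authors deposited for cultured mouse natural killer (NK) cells, 15607 lay within 1000 bp of either end of a protein-coding gene, and these are the gene-boundary regions described here. They were chosen by position alone, from 21900 protein-coding genes of the RefSeq assembly GRCm38.p6, and 13266 of those genes had at least 1 boundary region. The readout for each region was whether the authors had placed it in their deposited up list or down list. Of the boundary regions, 207 were in the up list, 95 were in the down list and the others were unlisted. Over all regions 4.21% were up and 1.40% down, or 5.61% in either list, which is the background for counts of regions.

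The data came from ATAC-seq, an assay that reads open chromatin by the places where a transposase can cut into it and attach adapters. The cells were splenic NK cells of wild-type (WT) C57BL/6 mice, cultured for 72 h in a high dose (HD) or a low dose (LD) of interleukin-15 (IL-15), with 2 replicates per dose and 4 samples in all. All samples shared the genotype, the strain, the culture time and the presence of IL-15, and the labels give no concentration, sex or age. NK cells are innate lymphocytes that need IL-15 to survive, divide and load their cytotoxic granules, so the design compares amounts of one cytokine and has no culture without it.

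The files held 0 columns of values per sample. No accessibility level, fold change, p-value or replicate spread could therefore be given for any region, and sequencing depth is unknown. Which dose was the reference for the up and down lists was not stated, and neither list is assigned to a dose here. Counts and shares below describe the authors' calls, with 95% Wilson intervals that cover counting error only, since regions are not replicates.

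The start of a gene and the DNA just before it form the promoter, where transcription factors and RNA polymerase assemble. Promoters rich in CpG dinucleotides tend to be open in most cell types, whereas promoters poor in CpG more often belong to genes used by few cell types. Regions inside introns, between genes and beyond the far end of a gene can act as enhancers, which are often more specific to a cell type or stimulus than promoters are.

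Of 14 genes that mark NK cells, 14 had an accessible boundary region, among them Eomes, Tbx21, Ncr1, Gzma, Gzmb and Prf1. The corresponding numbers were 6 of 10 for T cell genes, 4 of 9 for B cell genes, 7 of 15 for myeloid and dendritic cell genes and 6 of 11 for genes of cells outside the blood lineage, against 60.6% of all protein-coding genes. Markers without an accessible boundary region included Cd3g, Cd8a and Cd8b1 (T cells), Ms4a1 and Pax5 (B cells), and Lyz2, Csf1r and S100a8 (myeloid cells). Those with one were Cd3d, Cd3e, Cd4, Cd5, Cd6 and Themis among the T cell genes. Among the B cell genes they were Cd79a, Blk, Cr2 and Ebf1. Accessibility of a promoter does not measure expression, and the share of other cells in the cultures was not tested.

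Sequences of 8 promoters show the range of base composition at listed gene starts. They comprise listed promoters with few CpG dinucleotides, listed promoters with many, and the unlisted promoter of Gzmb, a granule protease gene near Gzme on chromosome 14. They were chosen after their lists were known. Each is the 250 bases before the gene start from RefSeq (GRCm38.p6, the build named mm10 in the submitters' processing notes), written 5′ to 3′ on the gene's strand with CpG dinucleotides in capitals.
Gzme, up, chr14:56120626-56120875, minus strand: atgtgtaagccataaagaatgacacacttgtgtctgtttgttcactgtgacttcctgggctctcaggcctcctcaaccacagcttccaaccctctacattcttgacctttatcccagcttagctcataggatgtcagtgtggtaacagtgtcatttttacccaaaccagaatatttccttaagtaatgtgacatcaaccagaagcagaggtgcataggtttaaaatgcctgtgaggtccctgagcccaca
Havcr2, up, chr11:46454681-46454930, plus strand: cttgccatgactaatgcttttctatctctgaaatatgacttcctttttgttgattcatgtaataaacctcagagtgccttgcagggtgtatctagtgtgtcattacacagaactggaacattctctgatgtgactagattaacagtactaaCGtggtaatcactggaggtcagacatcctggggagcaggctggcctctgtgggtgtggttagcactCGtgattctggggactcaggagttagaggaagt
Spp1, up, chr5:104434861-104435110, plus strand: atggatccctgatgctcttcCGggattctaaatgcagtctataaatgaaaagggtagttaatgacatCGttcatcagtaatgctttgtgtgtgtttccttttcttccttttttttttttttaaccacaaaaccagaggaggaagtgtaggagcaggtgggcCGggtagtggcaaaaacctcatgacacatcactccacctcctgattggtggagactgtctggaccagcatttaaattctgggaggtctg
Itga2b, up, chr11:102469884-102470133, minus strand: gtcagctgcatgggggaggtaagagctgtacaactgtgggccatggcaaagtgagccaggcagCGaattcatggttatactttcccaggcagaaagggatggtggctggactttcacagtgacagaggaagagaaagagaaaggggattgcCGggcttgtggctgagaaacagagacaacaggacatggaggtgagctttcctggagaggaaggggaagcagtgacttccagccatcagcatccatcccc
Klrb1a, down, chr6:128622935-128623184, minus strand: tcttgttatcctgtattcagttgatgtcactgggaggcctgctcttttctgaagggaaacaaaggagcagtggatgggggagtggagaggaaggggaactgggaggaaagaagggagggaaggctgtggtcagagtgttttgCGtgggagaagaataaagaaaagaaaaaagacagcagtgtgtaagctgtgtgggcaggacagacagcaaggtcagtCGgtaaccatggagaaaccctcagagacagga
Fads2, up, chr19:10101504-10101753, minus strand: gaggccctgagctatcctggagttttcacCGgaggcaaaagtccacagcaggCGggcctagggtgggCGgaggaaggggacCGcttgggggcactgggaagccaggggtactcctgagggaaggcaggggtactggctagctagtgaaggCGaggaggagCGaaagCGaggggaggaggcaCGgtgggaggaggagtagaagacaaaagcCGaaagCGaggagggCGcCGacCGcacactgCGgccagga
Commd3, down, chr2:18672185-18672434, plus strand: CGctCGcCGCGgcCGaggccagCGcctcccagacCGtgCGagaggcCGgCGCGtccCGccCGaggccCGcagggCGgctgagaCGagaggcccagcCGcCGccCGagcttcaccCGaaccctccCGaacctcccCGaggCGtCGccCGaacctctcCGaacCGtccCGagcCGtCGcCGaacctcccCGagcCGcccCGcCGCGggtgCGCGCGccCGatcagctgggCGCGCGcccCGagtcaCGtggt
Gzmb, unlisted, chr14:56262335-56262584, minus strand: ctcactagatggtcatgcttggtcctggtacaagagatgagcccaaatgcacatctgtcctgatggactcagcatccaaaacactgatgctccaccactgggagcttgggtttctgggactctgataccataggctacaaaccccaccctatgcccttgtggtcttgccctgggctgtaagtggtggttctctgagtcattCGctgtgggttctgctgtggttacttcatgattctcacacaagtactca
The accessible region, unlisted at Gzmb and listed at the other genes, covered all 250 bases except at Klrb1a, where it covered 241. Gzme had 0 CpG dinucleotides in these bases, Gzmb had 1, Havcr2, Itga2b and Klrb1a had 2, and Spp1 had 3. Fads2 had 14 and Commd3 had 45.

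Boundary regions were listed less often than other regions. At gene boundaries the shares were 1.33% up (1.16 to 1.52%) and 0.609% down (0.498 to 0.743%), against 4.81% and 1.56% of the 75659 regions away from boundaries. Up regions made up 68.5% of the listed boundary regions (63.1 to 73.5%) and 75.5% of the listed regions elsewhere. At the limit of the 1000 bp rule, regions 751 to 1000 bp from a boundary were up in 2.45% and down in 0.884% of 1471 cases. Those just outside, at 1001 to 1250 bp, were up in 3.83% and down in 0.976% of 1332 cases.

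Both lists had their lowest shares at gene starts, and the far ends of genes differed less from regions elsewhere. Strand was known for 17492 of the 21900 genes, which assigned 10527 boundary regions to a gene start and 1967 to a gene end only. At starts, 101 regions were up, or 0.959% (0.790 to 1.16%), and 32 were down, or 0.304% (0.215 to 0.429%). At ends, 66 were up, or 3.36% (2.65 to 4.25%), and 42 were down, or 2.14% (1.58 to 2.87%). Both intervals at ends lay above those of starts. The up share at ends was still below that of regions away from boundaries (4.66 to 4.96%), while the interval of the down share overlapped theirs (1.47 to 1.65%). The other 3113 boundary regions were near no known start and near at least 1 gene without a known strand. Of these, 1.28% were up and 0.675% were down, values between those of starts and ends.

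**Figure D1:**
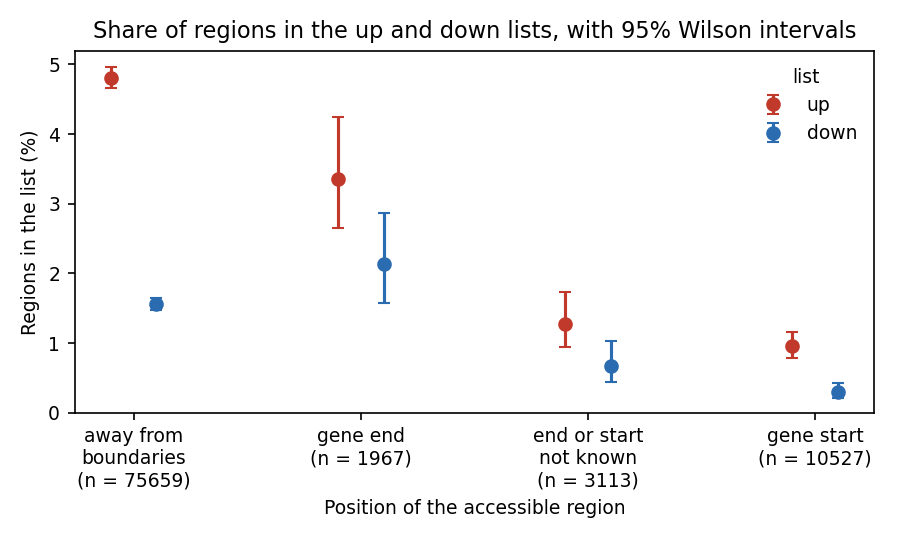
Percentage of accessible regions in the authors' up list (red) and down list (blue) by position relative to protein-coding genes, with 95% Wilson intervals for counting error. Gene starts have the lowest shares in both lists (0.959% and 0.304%), and gene ends have the highest down share (2.14%).

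Around gene starts the 2 lists had different shares on the upstream side. Regions with midpoints within about 250 bp of a start were up in 0.727% of 6053 cases and down in 0.182%. In the 500 bp bin centred 1500 bp upstream, singled out as the highest, 31 of 461 regions were up (6.72%, 4.78 to 9.39%) and 2 were down, or 0.434% (0.119 to 1.57%). In the bin centred 1500 bp downstream, inside the gene, 19 of 901 were up, or 2.11% (1.35 to 3.27%), and 13 were down, or 1.44% (0.845 to 2.45%). Because the upstream bin was chosen for its height, this difference is a description. The bins centred at 1000 bp had 2.60% up upstream and 1.71% downstream. From 2000 to 4500 bp each bin also had the higher up share upstream, with 5.98% against 1.91% at 2000 bp and 4.75% against 2.96% at 4500 bp. Of these bins, only those at 2000 bp had intervals that did not overlap. At 5000 bp the order was reversed, with 3.35% (1.93 to 5.77%) upstream and 5.46% (3.63 to 8.13%) downstream, and the intervals overlapped. Among the boundary regions proper that lay beside a start, 21 of 843 outside the gene were up and 2 were down, while 28 of 1847 inside the gene were up and 14 were down. Around gene ends the up share showed no such dip, at 2.86% of 455 regions within about 250 bp of the end and 2.47% of 647 in the bin centred 1000 bp beyond it.

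**Figure D2:**
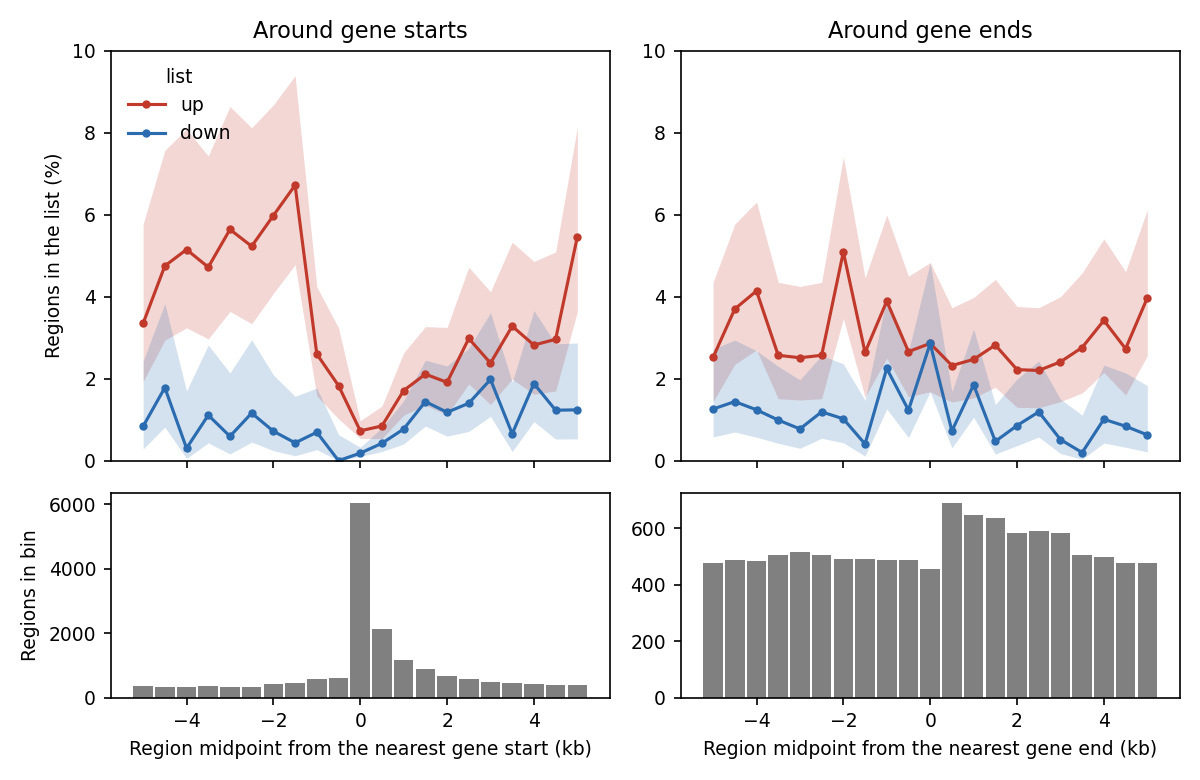
Percentage of all accessible regions in the up list (red) and down list (blue) against the distance of the region's midpoint from the nearest known gene start (left) or gene end (right), in bins of 500 bp with 95% Wilson intervals as shading and the number of regions per bin below. Negative distances lie upstream of a start, or inside the gene at an end. The up share falls to 0.727% on the start and reaches 6.72% in the bin centred 1500 bp upstream, and no such dip is seen at ends.

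Many listed regions at starts lay beside the start itself. Of the 101 up regions at a start, 50 held the first base of a gene and 51 lay beside it. For 26 of those 51, another accessible region held the first base and was unlisted. In 0 cases was the region on the first base also listed, and in 25 cases no region held it. Of the 32 down regions at a start, 15 held the first base and 17 lay beside it, 11 of them with an unlisted region on the first base. By contrast, 73.4% of the 10394 unlisted regions at starts held the first base. Regions on a start were up in 0.650% and down in 0.195% of 7694 cases, and regions beside a start in 1.80% and 0.600% of 2833.

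Width moved with these shares. Boundary regions had a median width of 794 bp, against 359 bp elsewhere, and unlisted regions at starts had 883 bp. Up regions at starts were narrower, with a median of 473 bp, and down regions there had 771.5 bp. At gene ends unlisted regions were the narrowest, with 507 bp for up, 552.5 bp for down and 373 bp for unlisted regions. The low share at starts remained in 3 of 4 width classes. Of regions 401 to 653 bp wide, 3.46% of those at starts were in either list, 8.82% of those at ends and 11.1% of those away from boundaries. Among regions of 253 to 400 bp the values were 3.29%, 4.91% and 7%, and among those of 654 bp or more 0.560%, 7.81% and 6.85%. The exception was the narrowest class, 150 to 252 bp, with 1.17%, 0.420% and 0.999%. Regions away from boundaries, weighted to the widths of those at starts, would have been up in 4.64% and down in 2.43%, so that the observed shares were 0.207 and 0.125 times these values. At gene ends the same ratios were 0.671 for up and 1.30 for down.

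**Figure D3:**
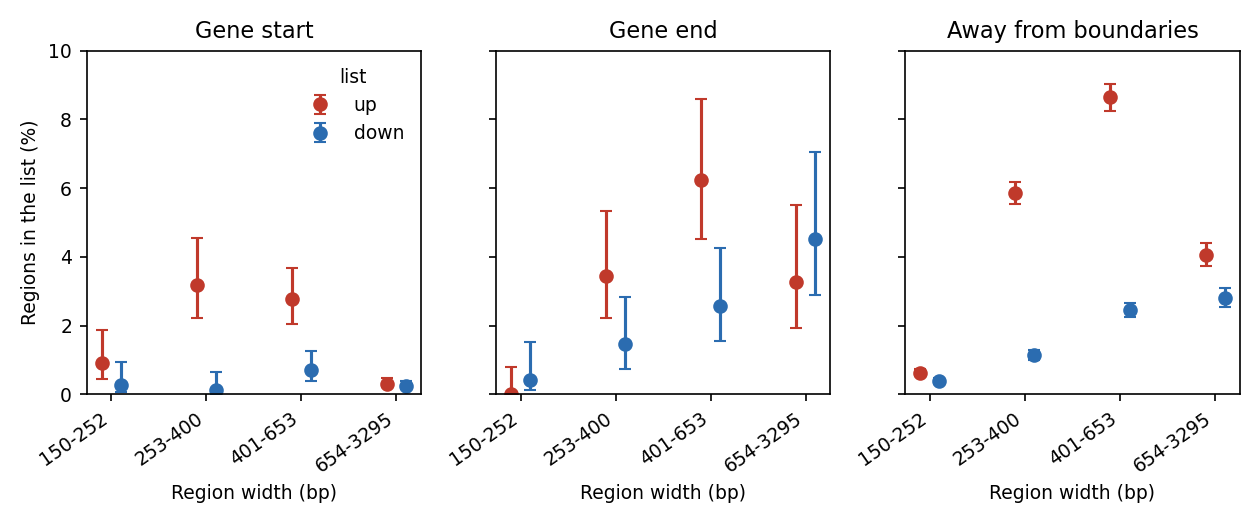
Percentage of regions in the up list (red) and down list (blue) by width in 4 classes that split all regions into near-equal numbers, at gene starts, at gene ends and away from boundaries, with 95% Wilson intervals. In the widest class the shares at starts are 0.314% up and 0.246% down, whereas at ends the down share of that class is the highest of the 4 (4.53%).

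Promoters poor in CpG were listed more often than promoters rich in CpG. A boundary region overlapped a RefSeq promoter of 300 bases (250 before and 50 after a start site of the promoter table, which at some genes lies inside the outermost end used above) in 50 up, 16 down and 8138 unlisted cases. The median number of CpG dinucleotides was 13 for up, 17.5 for down and 22 for unlisted promoters, against 7 for all 32851 promoters of the table. The share of boundary regions in either list fell from 3.21% (1.95 to 5.22%) with 0 to 5 CpG to 0.440% (0.223 to 0.865%) with more than 30. CpG moved with width, the median of which rose from 656 to 1160 bp between these classes. Among regions of 500 to 1000 bp, 10 of 564 with up to 10 CpG were listed, or 1.77% (0.966 to 3.23%), and 24 of 3054 with more, or 0.786% (0.529 to 1.17%). These 2 intervals overlapped. The down list had 3 or 4 promoters in each of the 5 classes, too few to show a trend of its own.

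**Figure D4:**
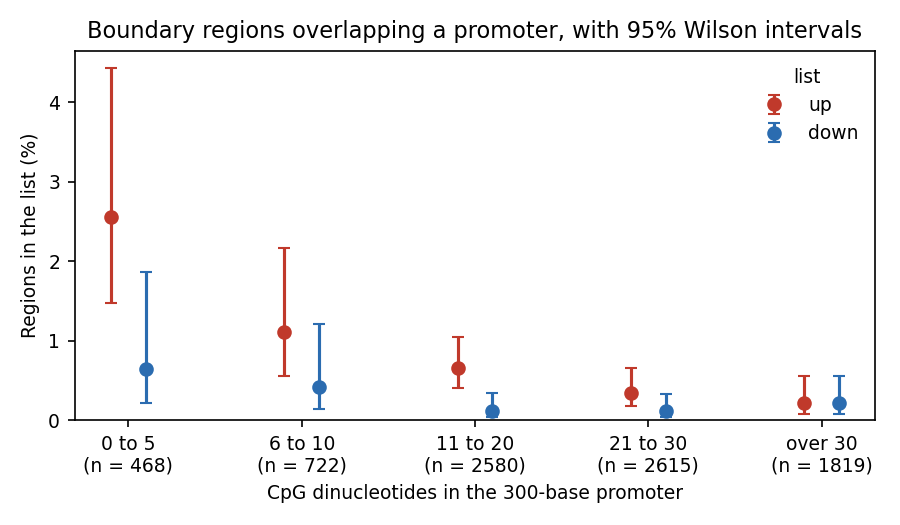
Percentage of promoter-overlapping boundary regions in the up list (red) and down list (blue) against the number of CpG dinucleotides in the 300-base promoter, with 95% Wilson intervals and the number of regions per class. The up share falls from 2.56% in the class with 0 to 5 CpG to 0.220% above 30.

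Short letter patterns of known factor families were searched for on both strands of the 300 bases, where a base may belong to matches of more than 1 pattern. TGTGGT, the core bound by RUNX factors, was in 14 of 50 up promoters (28%), 2 of 16 down promoters (12.5%), 12.4% of unlisted promoters and 16.8% of all promoters. Since the pattern is commoner in promoters with little CpG, it was also counted by CpG class. With up to 10 CpG it was in 9 of 20 up promoters (45%) and in 277 of 1164 unlisted ones (23.8%), and with more CpG in 5 of 30 (16.7%) and in 10.5% of 6974. In the sequences above, TGTGGT or its complement starts 113 and 175 bases before the start of Gzme, 46 before Havcr2, 128 before Spp1 and 126 before Klrb1a. The unlisted Gzmb promoter holds it as well, at 34 and 93 bases before the start. TGANTCA, the AP-1 pattern, was in 12% of up, 6.25% of down, 4.60% of unlisted and 7.81% of all promoters, and in 5 of 20 up promoters with up to 10 CpG against 9.88% of the unlisted ones. With more CpG it was in 1 of 30 up promoters (3.33%) and in 3.71% of the unlisted ones.

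The other patterns differed in direction. CCGGAA, the ETS core, was in 8% of up and 12.5% of down promoters, 29.2% of unlisted and 14.9% of all. It was in 6.67% of up and 31.3% of unlisted promoters with more than 10 CpG, and in 10% and 16.5% with up to 10. GGGCGG, bound by SP and KLF factors, was in 58% of up, 50% of down, 69.1% of unlisted and 35.7% of all promoters. This pattern contains a CpG, and by CpG class the difference did not remain: with more than 10 CpG it was in 80% of up and 76.1% of unlisted promoters, and with up to 10 in 25% and 27.3%. TGACGTCA, the cyclic AMP response element, was in 0 up and 0 down promoters, 3.54% of unlisted and 1.79% of all. TTCNNNGAA, the pattern of STAT factors, through which the IL-15 receptor signals, was in 4 of 50 up promoters (8%), 0 of 16 down promoters, 6.39% of unlisted and 8.30% of all. The NF-kB pattern was in 36% of up, 18.8% of down, 27.2% of unlisted and 20.7% of all promoters. That of interferon regulatory factors was in 6%, 12.5%, 3.18% and 3.44% in the same order. CACGTG, the E-box, was in 6%, 18.8%, 10.6% and 7.15%, TATAAA in 10%, 12.5%, 6.49% and 13.6%, and GGTGTGA, for T-box factors, in 4%, 6.25%, 3.26% and 3.98%. With 50 and 16 listed promoters, most of these shares rest on fewer than 10 matches.

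At the level of genes, 219 had an up boundary region, or 1.65% of the 13266 genes with any, and 112 had a down one, or 0.844%. Only Tcte2 had both, a down region on its start, shared with a boundary of Afdn, and an up region 456 bp beyond its end. Of the 302 listed boundary regions, 30 lay at the boundaries of 2 or more genes and cannot be assigned to 1 of them. Genes of the immune, growth and metabolic lists used here numbered 612 with a boundary region, of which 11 had an up one (1.80%) and 18 a down one (2.94%). The other 12654 genes had 208 (1.64%) and 94 (0.743%). The down share was the higher of these for the list genes and the lower for other genes, and the lists were written with earlier results of these data known.

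**Figure D5:**
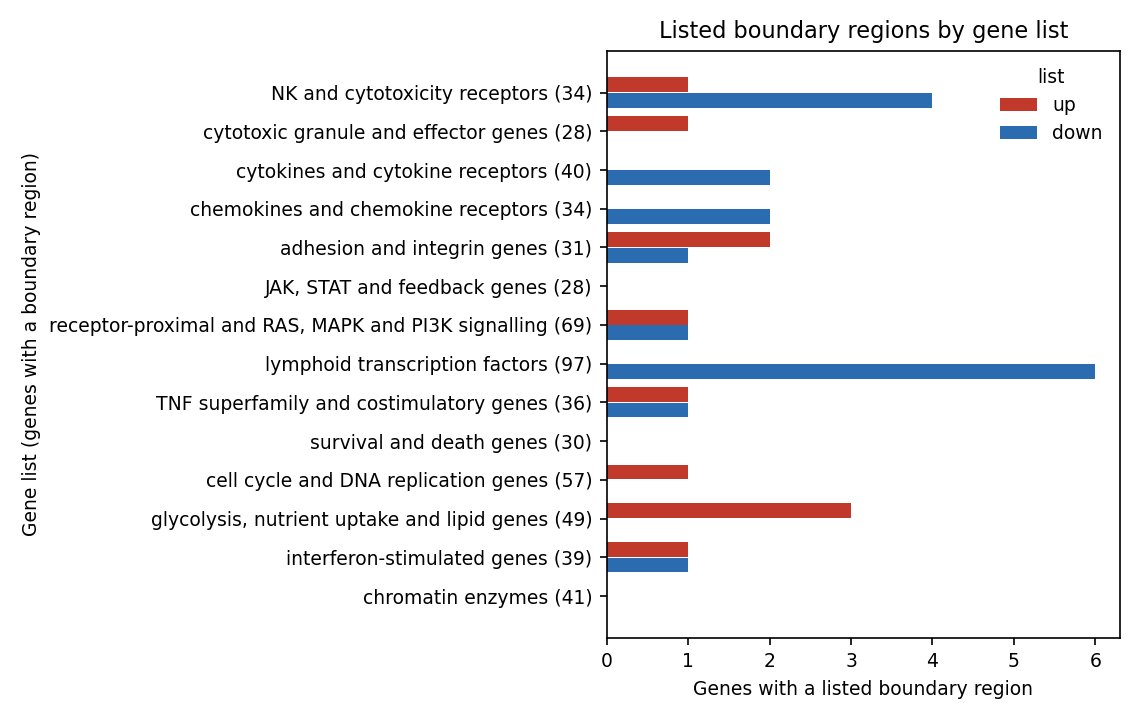
Number of genes with an up (red) or down (blue) boundary region in each of the function lists, with the number of list genes that had any boundary region in parentheses. The list of lymphoid transcription factors, which holds the NF-kB inhibitor gene Nfkbia but not Ebf1, has 6 genes down and 0 up. In 3 lists (JAK and STAT genes, survival and death genes, chromatin enzymes) there are 0 of each.

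Among receptors, the down list held boundary regions of 4 of 34 NK and cytotoxicity receptor genes (11.8%) and the up list of 1 (2.94%), against 0.844% and 1.65% of all genes with a boundary region. Klrb1c encodes NK1.1, the antigen by which NK cells of C57BL/6 mice are identified. Its down regions, of 1112 and 460 bp, lay on either side of the gene's end at chr6:128777331-128778442, outside the gene, and chr6:128778741-128779200, inside it. The region on the start of Klrb1c was unlisted. Klrb1a, a neighbouring receptor gene of the same family, had a down region of 409 bp over its start at chr6:128622767-128623175, and an unlisted region 785 bp upstream. Ncr1 encodes the activating receptor NKp46, and its down region of 308 bp lay 724 bp beyond the gene's end at chr7:4345908-4346215, while the region on its start was unlisted. Slamf6, a receptor of the SLAM family, had a down region of 736 bp over its start at chr1:171917318-171918053. The up receptor was Havcr2, the gene of the checkpoint receptor TIM-3, with 559 bp over its start at chr11:46454554-46455112.

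Of the cytokine and cytokine receptor genes 2 of 40 were down and 0 up, and of the chemokine and chemokine receptor genes 2 of 34 were down and 0 up, against 0.844% down and 1.65% up over all genes. Outside these lists, the chemokine gene Ccl28 and the receptor gene S1pr3 had up boundary regions. Il2rg encodes the common gamma chain that the IL-15 receptor shares with other cytokine receptors. Its down region of 230 bp lay inside the gene, 738 bp from the end, at chrX:101265123-101265352, and the 1041 bp region on its start was unlisted. Il10ra, a chain of the interleukin-10 receptor, had a down region of 394 bp inside the gene at chr9:45268073-45268466, next to an unlisted region over that boundary. S1pr1, the receptor that guides lymphocytes out of tissues, had a down region of 1027 bp over a boundary at chr3:115714634-115715660. Ccl4, a chemokine made by activated NK cells, had a down region 595 bp outside the gene at chr11:83665278-83666276. None of these 4 genes had an up boundary region.

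The list of lymphoid transcription factors had 6 of 97 genes in the down list (6.19%) and 0 in the up list, against 0.844% and 1.65% of all genes with a boundary region. Among the 6 is Nfkbia, which encodes an inhibitor of NF-kB and not a transcription factor. The list does not hold Ebf1, which was counted with the B cell markers and was up. Klf3 and Klf6, of the Krüppel-like family, and Irf8, an interferon regulatory factor, each had an unlisted region on the start and a down region inside the gene. These down regions measured 237 bp at chr5:64804247-64804483 (726 bp from the start of Klf3), 179 bp at chr13:5862426-5862604 (937 bp into Klf6) and 644 bp at chr8:120737186-120737829 (828 bp into Irf8). Egr1 and Nr4a1, which are induced within minutes of receptor signalling, had down regions 111 and 183 bp outside a gene boundary, of 635 and 1187 bp. The down region of Nfkbia, of 741 bp, lay 36 bp beyond the gene's end, with an unlisted region of 1314 bp on the start.

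The signalling genes Traf1 and Dusp2 and the antiviral gene Samd9l showed the same arrangement. Traf1, an adaptor of tumour necrosis factor receptors, had a down region of 377 bp that began 535 bp inside the gene. Dusp2, a phosphatase of MAP kinases, had a down region of 559 bp lying 425 bp beyond the gene's end, which was also at a boundary of Astl. Samd9l had one of 462 bp, 627 bp inside the gene. At each of these genes the region on the start was unlisted. Over the function lists, the listed region held a boundary base at 4 of the 18 down genes (among them Klrb1a, Slamf6 and S1pr1), and 16 of the 18 also had an unlisted boundary region. Over all 112 down genes it held a boundary base at 36 (32.1%), and 80 (71.4%) had an unlisted boundary region too.

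Among the 11 up genes of the function lists, the listed region held the boundary base at 10, against 78 of all 219 up genes (35.6%). Gzme encodes a granule protease of the granzyme family, and its up region of 450 bp covered the start at chr14:56120497-56120946. The list of 28 granule and effector genes had 0 down and no further up genes, and it does not hold Cst7, which was down, or Mcpt8, which was up. Fads2, a fatty acid desaturase, had 1518 bp over its start at chr19:10100769-10102286, and Gls2, a mitochondrial glutaminase, had 1726 bp over a boundary at chr10:128193985-128195710. Gapdh, a glycolytic enzyme often used as a reference gene, had 521 bp over its start at chr6:125166211-125166731. These 3 were the up genes among 49 of glycolysis, nutrient uptake and lipid handling, of which 0 were down, or 6.12% up against 1.65% of all genes with a boundary region.

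Of 31 adhesion and integrin genes, 2 were up (6.45%) and 1 was down (3.23%), against 1.65% and 0.844% of all genes. Itga2b, the alpha chain of the platelet fibrinogen receptor, had 590 bp over its start, and Itgb8, a chain of an integrin that activates TGF-beta, had 987 bp. Oasl2, an interferon-induced gene, had an up region of 1137 bp over its start, and Tnfrsf10b, the mouse death receptor for TRAIL, had 875 bp over a boundary. Ccnd1, which encodes cyclin D1, had 387 bp over a boundary and was the only one of the 57 genes in the cell cycle and replication list with a listed boundary region, a list that does not hold Cenpe, Ncaph2 or Rad51ap1. Dusp16, a phosphatase of JNK and p38 kinases, was the exception among the 11, with 290 bp lying 48 bp upstream of its start.

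Function lists with 0 up and 0 down genes were the JAK, STAT and feedback genes (28 with a boundary region), the survival and death genes (30) and the chromatin enzymes (41). Genes of like function outside these lists were up or down. The histone demethylase gene Kdm5c, Dnmt3l and Uhrf1, which act in DNA methylation, and Bcl2a1c, of the BCL-2 family, were up. The chromatin regulator genes Phf1, Cbx7 and L3mbtl3 were at down regions, each of which was at a boundary of another gene too. At the background of 1.65% and 0.844% of genes, counts of 0 in lists of this size do not set them apart. Larger lists were defined by symbol or class. Ribosome, proteasome and other core genes had Eif3f and Psmd14 up and 1 gene down among 248. Solute carriers had 7 up (Slc1a1, Slc24a3, Slc27a4, Slc2a13, Slc38a7, Slc6a19 and Slco2b1) and 0 down among 254. Zinc-finger genes had 5 up (Zbtb7c, Zfp57, Zfp819, Zfp9 and Zkscan2) and Zbtb10 down among 378. Olfactory receptors, and orphan and adhesion receptors of the G protein class, had 1 up gene each (Olfr9 and Adgrf1) and 0 down. The histone genes H2bc4 and H4c1 were up, the second of them outside the histone list, which was defined by symbol and had 0 down.

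Beyond the lists, genes were grouped after their names had been seen, which describes them and supports nothing. The group of proteases and their inhibitors in the up list held Gzme, Mcpt8, a protease of basophils, Prss42 and Spink2. It was not complete, since the protease genes Hgfac and Cpe were up as well. The protease genes Cym, Lnpep and, in a region shared with Dusp2, Astl were at down regions. Immune receptors and adaptors were Havcr2, Tnfrsf10b, Cd300lf, Fcrl1, Oscar, Pilrb2, Tmigd3 and Dok2. Secreted and adhesive proteins included Spp1, which encodes osteopontin and had 1191 bp over its start at chr5:104434181-104435371, the growth factor Tgfa with 935 bp over its start, Ccl28, Gdf2, Bmp8a and Agrn. The cadherins Cdh3 and Cdh6, the plexins Plxna2 and Plxnd1, Flrt3 and the ephrin receptor Epha2 also had up boundary regions.

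Enzymes of metabolism were a further group of up genes made in this way. In it the listed region held a boundary base at 9 of 13, against 78 of all 219 up genes (35.6%). Other metabolic enzyme genes, among them Amd1, Sardh and Sdhb, were at down regions. Asns, which makes asparagine, had 888 bp over its start, and Upp1, which breaks down uridine, had 1077 bp. Alox5 and Ptgs2, which open the leukotriene and prostaglandin routes, had 435 and 494 bp over their starts. Pfkfb4, Gart, Ggps1, Por, Aldh9a1 and Xylb were up too. Of 11 up genes of cell division, repair and chromatin (Ccnd1, Uhrf1, Rad51ap1, Cenpe, Ncaph2, Tdp1, Xpc, Dnmt3l, Kdm5c, H2bc4 and H4c1), the listed region held a boundary base at 2. One of the 2 was Uhrf1, a factor that maintains DNA methylation, with 560 bp over its start. The regions of Rad51ap1, Ncaph2 and Xpc were each at a boundary of another gene too. Ion channel genes (Kcnc1, Kcnh1, Kcnj2, Cacng2 and Scnn1g) and developmental factors (Ebf1, Foxq1, Nkx6-1, Pou2f3, Sall3 and Tbx5) had up regions as well. Together these groups held 61 of the 219 up genes.

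Ebf1, a transcription factor that defines the B lineage, had 2 up boundary regions, 536 bp upstream of its start at chr11:44616909-44617564 and 110 bp inside it at chr11:44618210-44618576. Its other boundary region was unlisted. The B cell receptor-related gene Fcrl1 was also up, with 889 bp over its start. Beside these, 5 of 9 B cell markers had no accessible boundary region (among them Cd79b, Fcer2a, Ms4a1 and Pax5), and none of the 4 that had one was listed other than Ebf1.

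In the down list, a group of lymphocyte protease inhibitors stood beside the receptors. Cst7 encodes cystatin F, an inhibitor of cathepsins in granules, and had 722 bp over its end at chr2:150578431-150579152. Ctla2a and Ctla2b had 941 and 669 bp inside the gene, and Serpina3g had 857 bp lying 770 bp beyond its end. Antiviral genes with a down region included Samd9l and Apobec3. The Apobec3 region, at chr15:79916747-79917248, was at a boundary of Cbx7 as well and cannot be assigned to either. The UDP-glucuronosyltransferase cluster on chromosome 1 added 9 gene names with only 2 regions, because 7 of its genes share a region of 1296 bp at chr1:88220407-88221702. Gimap6, a GTPase of lymphocytes, had 553 bp over its end, and B3gnt7, a glycosyltransferase, had 335 bp over its end. Fhit, Nrarp, Pmepa1 and, in a region shared with L3mbtl3, Samd3 were down too, and the groups named held 30 of the 112 down genes.

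The 10 widest regions of each list differed in where they lay. After Gls2 and Fads2, the up list had Ppp2r5e (1409 bp), Shisa2 (1293 bp), Polr3b (1222 bp), Trim16 (1208 bp), Spp1, Ranbp17 (1154 bp), Oasl2 and Upp1, and 10 of these 10 held a boundary base. The down list was led by C1ql3 (2004 bp) and Tmem121b (1977 bp), both over the start, then by a region of 1468 bp over a boundary of Tcf24 and 143 bp from Ppp1r42. Regions at Ywhaz (1427 bp), Msgn1 (1399 bp), Esr1 (1372 bp), Col19a1 (1363 bp), the shared end of the glucuronosyltransferase genes, Unc93a (1220 bp) and Efhc2 (1217 bp) followed, and 5 of the 10 held a boundary base. Esr1, the oestrogen receptor gene, had its down boundary region on the start and 2 more down regions among 19 inside the gene.

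There were 7 genes with 2 or more listed boundary regions. Among them, Klrb1c, Rassf2 and Tmem121b had 2 down each, and Ebf1 and Klhl34 had 2 up each. The up region 35 bp beyond the end of Klhl34, at chrX:157821095-157821487, also held the end of Cnksr2 and cannot be assigned to either gene. Rassf2, a member of the Ras association domain family, had 327 bp lying 8 bp beyond its end and 937 bp inside it. Tcte2 was the gene with 1 of each.

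Genes with a listed boundary region had regions of the same list deeper inside more often than genes with unlisted boundary regions. Regions inside a gene and more than 1000 bp from its ends were present in 137 genes with an up boundary region, of which 29 (21.2%) had an up region there and 2 (1.46%) a down one. In the 83 genes with a down boundary region, 1 (1.20%) had an inner up region and 25 (30.1%) an inner down one. Among these 25 were 7 glucuronosyltransferase genes that share a down boundary region. Their inner down region was shared too, at chr1:88217507-88218007, and is itself a boundary region of Ugt1a8 and Ugt1a6b. Among 7754 genes whose boundary regions were unlisted, 13.1% had an inner up region and 5.76% an inner down one. With each inner region counted once for every gene that holds it, 7.68% of 560 were up in the first set and 10.1% of 415 were down in the second. In the third, 3.96% and 1.66% of 34149 were up and down. The shared glucuronosyltransferase region thus entered the second set 7 times. Fhit had the most inner down regions of those named, 7 of 23. Slc24a3 had 5 inner up regions of 20, Psd3 had 4 of 17 and Alox5 had 3 of 8. Within 20 kb, 49 of the 207 up boundary regions (23.7%, 18.4 to 29.9%) had an up region as a neighbour and 0 had a down region. Of the 95 down boundary regions, 28 (29.5%, 21.2 to 39.3%) had a down neighbour and 0 an up one. Of the 15305 unlisted boundary regions, 9.89% had an up and 3.96% a down neighbour at this distance. Away from boundaries, 28% of up regions had an up neighbour and 26.7% of down regions a down one, with intervals that overlapped those at boundaries.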

How the data were processed

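ATAC-seq was performed on 4 samples of cultured NK cells, 2 per IL-15 dose, grouped by the dose in their titles. The files hold positions and region widths in bp as the authors deposited them, per the file headers, with the authors' 2 lists, up and down, of regions whose accessibility they called different. The submitters' processing notes name mm10, BWA, ArchR, MACS2 and HOMER 4.11.1 without giving their roles. The differential test, its threshold and whether peaks were called per sample are not given in the sources used here. The deposited tables hold 0 columns of values per sample, so the planned use of replicates was not possible and no p-value is printed.

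Starts were raised by 1, and listed regions were looked up among all regions. Gene ends came from a RefSeq gene table and strands and promoters from a RefSeq promoter table (both GRCm38.p6). A region counted as at a start if it lay within 1000 bp of any known start. It counted as at an end if all gene boundaries within that distance were known ends, and was otherwise assigned to neither. A gene's start and end here are the outermost positions of its record, so alternative starts inside a gene count as inside. Python 3.11.15 with pandas 2.3.3 and numpy 2.4.6 was used, and the assignment and intervals were tested on simulated data.

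Genes named are those of the function lists with a listed boundary region, the 10 widest regions of each list, genes with 2 or more listed boundary regions, and others grouped after their names were seen. The members and gene lists were chosen with earlier results of these data known, and the width weighting, the count of motifs by CpG class and the view of regions on or beside a start were chosen after seeing the data. Other distances, overlap rules, gene sets and splits by width were tried as alternatives. A few listed genes are not reported here by name.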

Additional observations from a re-analysis of the deposited data

How the results depend on the processing

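No paired analysis was possible because the tables hold no values per sample, and for the same reason leaving out a replicate, another normalization and a stricter threshold were not run. Of 45 alternative values, 25 stayed within the 95% Wilson interval of the reported share (for counts of genes, within 1.5 times) and 20 did not. That interval is wider in proportion for shares that rest on fewer regions. The up share at boundaries, 1.33%, was 0.842% within 100 bp, 1.09% within 500 bp, 2.15% within 3000 bp, 0.783% for regions holding the boundary base, 2.03% with genes of any biotype and 1.86% up to the median width. The down share, 0.609%, was 0.402% within 100 bp, 0.797% within 3000 bp, 0.336% for regions holding the base and 0.465% up to the median width. Each of these values stayed below the shares over all regions, 4.21% and 1.40%. Up regions were 80% of the listed boundary regions up to the median width, against 68.5% in all. At 3000 bp the function lists had 25 genes up and 34 down, against 11 and 18. In alternatives chosen after seeing the data, up regions at starts were 0.667%, 0.753% and 1.76% within 100, 500 and 3000 bp, and down regions there 0.201% and 0.572% within 100 and 3000 bp. Down regions at ends were 3.08% within 100 bp and 1.49% within 3000 bp, and the shares at ends stayed above those at starts at all 4 distances. Shares shift with distance and gene set by construction, since each alternative counts other regions; the causes of the remaining shifts were not tested. Depth is unknown, so what was too shallow to be listed cannot be told.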
